A study of Mus musculus with 6 samples.

Results

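The 9 genes described here encode receptors of the platelet surface: Itga2b, Itgb3, Gp1ba, Gp1bb, Gp5, Gp9, Gp6, Clec1b and Treml1. They were taken by name from the 55487 genes of a table of raw read counts, by what they encode and not by a threshold on any value. Earlier results of these data were known when they were chosen. The table holds polyadenylated RNA of megakaryocyte-erythroid progenitors, the precursors shared by the red cell and platelet lineages, sorted from marrow. The donors were C57BL/6 wild-type animals, 8 weeks old: 3 libraries represent controls and 3 a fast of 6 h. The design names the effect of fasting on erythropoiesis as its question. Genotype, strain and age were shared by both groups, and the labels do not say whether a library is 1 mouse or a pool, so the p-values measure only the spread between these libraries.

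Platelets are shed by megakaryocytes, and a platelet inherits its surface receptors from them. The integrin of the Itga2b and Itgb3 chains binds fibrinogen and links platelets to each other. The complex of the Gp1ba, Gp1bb, Gp5 and Gp9 products holds platelets to von Willebrand factor on a damaged vessel wall. Gp6 encodes the collagen receptor GPVI, Clec1b the podoplanin receptor CLEC-2, and Treml1 a receptor kept in alpha granules and shown on activated platelets. In the marrow, Itga2b (CD41) is switched on early in the megakaryocyte lineage, before most of the other receptors. GATA and ETS family factors, among them GATA1 and FLI1, act on many genes of this lineage.

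The sequences just before the start sites of these genes are shown because GATA and ETS factors bind such promoters, and 5 of the members whose counts stood clear of background have one here. They are the 250 bases before the RefSeq start, taken from RefSeq on GRCm38.p6, which held 8 of the 9 members (Itgb3 is the other). They lie at chr11:102469884-102470133 on the minus strand (Itga2b), chr11:70638872-70639121 on the plus strand (Gp1ba), chr16:30310782-30311031 on the minus strand (Gp5), chr6:87777820-87778069 on the plus strand (Gp9) and chr17:48359666-48359915 on the plus strand (Treml1). Each is written 5′ to 3′ along the gene's strand. GENCODE M21 places the outer end of Itga2b farther out, so most of that window lies inside the gene as given further on and part of it is an exon of an Itga2b transcript. Capitals mark AGATAA or TGATAA, the letters searched for GATA factors, and AGGAAG or CGGAAG, those searched for ETS factors, on either strand.
Itga2b: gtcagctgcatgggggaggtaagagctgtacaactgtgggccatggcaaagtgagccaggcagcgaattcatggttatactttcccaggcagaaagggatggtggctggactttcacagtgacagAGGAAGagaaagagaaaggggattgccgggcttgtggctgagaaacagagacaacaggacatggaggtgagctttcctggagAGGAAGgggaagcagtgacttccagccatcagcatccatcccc
Gp1ba: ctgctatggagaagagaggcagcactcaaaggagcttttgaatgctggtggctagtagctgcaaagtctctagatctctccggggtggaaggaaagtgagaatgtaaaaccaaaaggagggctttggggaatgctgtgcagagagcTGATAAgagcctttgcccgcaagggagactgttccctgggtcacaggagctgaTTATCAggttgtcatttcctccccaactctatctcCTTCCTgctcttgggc
Gp5: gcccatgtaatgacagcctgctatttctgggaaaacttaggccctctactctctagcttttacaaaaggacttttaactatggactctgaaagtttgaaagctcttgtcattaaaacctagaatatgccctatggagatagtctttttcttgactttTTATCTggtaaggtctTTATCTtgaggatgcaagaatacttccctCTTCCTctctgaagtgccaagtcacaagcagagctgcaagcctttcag
Gp9: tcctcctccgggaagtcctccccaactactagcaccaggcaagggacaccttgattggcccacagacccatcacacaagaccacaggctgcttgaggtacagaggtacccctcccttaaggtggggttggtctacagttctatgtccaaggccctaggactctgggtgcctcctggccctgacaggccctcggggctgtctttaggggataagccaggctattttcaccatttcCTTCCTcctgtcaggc
Treml1: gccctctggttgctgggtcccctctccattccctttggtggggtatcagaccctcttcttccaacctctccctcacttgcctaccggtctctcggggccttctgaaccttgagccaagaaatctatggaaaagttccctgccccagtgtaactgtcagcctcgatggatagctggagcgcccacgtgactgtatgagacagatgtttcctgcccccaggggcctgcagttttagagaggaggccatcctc
Gp1ba and Gp5 each held 2 GATA matches and 1 ETS match. Itga2b held 2 ETS matches and Gp9 held 1, and neither held the GATA letters. In both Gp1ba and Gp9 an ETS match lay 16 to 11 bases before the start. Treml1 held neither motif in this window. Of the members not printed, Gp6 and Clec1b each held 1 GATA match, and Gp1bb held 1 ETS match. Among all 32851 promoters of the same length in the table, 16.6% held a GATA match, 39.2% an ETS match and 5.49% both. A match of these letters is a description of the sequence only.

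Libraries held 12797144 to 30246110 gene counts, and each control library held more than each fasted library. A background was present, measured on 1422 odorant and vomeronasal receptor genes, which are known for sensory neurons rather than blood cells. They received 8.99 to 14.7 counts per kilobase in control and 14.2 to 16.0 in fasted libraries, and the same rate over all exons would make up 3.90 to 8.60% of the counts among the controls and 11.5 to 14.6% in fasted libraries. Control library 1 was the deepest and had the lowest background, and most members had their highest value in it. Marker lists were read as summed CPM (counts scaled to a common library size, after TMM scaling between libraries). Erythroid markers were present in both groups, with 11 of 13 genes reaching 5 times the background and a sum of 4387 to 9756 CPM for the controls and 4845 to 7116 in fasted libraries. Icam4 of that list was at 0 counts in every library. Megakaryocyte markers had 6 of 12 genes above that line and a sum of 896 to 1475 CPM in control against 440 to 731 in fasted libraries. Granulocyte and monocyte markers, with 15 of 15 genes above the line, summed to 4711 to 18522 CPM for the controls and 1431 to 3657 in fasted libraries. Mast cell and basophil markers, 4 of 6 above the line, summed to 124 to 273 CPM among the controls against 42.4 to 91.3 after the fast, and stem and multipotent progenitor markers, 5 of 8 above it, to 790 to 1079 against 336 to 693. On this scaling the sums of these last 4 lists did not overlap between the groups. A sum leans on its highest genes. In the fit described below, 2 of 12, 0 of 15, 2 of 6 and 1 of 8 genes were higher after fasting. Of single genes tested there, 15.1% were lower without overlap. With library totals alone the megakaryocyte sums (776 to 1112 against 565 to 785) and the granulocyte and monocyte sums (3550 to 17305 against 1837 to 4445) overlapped, as did those of the mast cell and stem lists. The part of these lists in the results on the receptor genes was not tested. In bulk RNA, fewer cells of a type and less RNA per cell cannot be told apart.

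Of the receptor genes 6 stood at or above 5 times the background on the mean of the 6 libraries, and the other 3, Clec1b, Gp6 and Gp1bb, did not. Itga2b had 15.5 to 157 times the counts that background alone would give over its length, Gp5 16.7 to 187 times and Gp9 8.71 to 52.8 times. Itgb3 had 5.15 to 19.97 times, Gp1ba 4.06 to 37.3 times and Treml1 2.54 to 48.6 times the background. The mean behind the line is of raw counts, so the deeper control libraries weigh more in it. In fasted libraries 1, 2 and 3 Treml1 had 6.22, 6.03 and 2.54 times the background. For Clec1b the range was 1.64 to 2.35 times and for Gp6 0.976 to 1.88 times, so reads of these 2 genes were not clearly separable from background at this depth. In each of the 6 genes that stood above the line, the highest of these ratios came from control library 1.

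**Figure D1:**
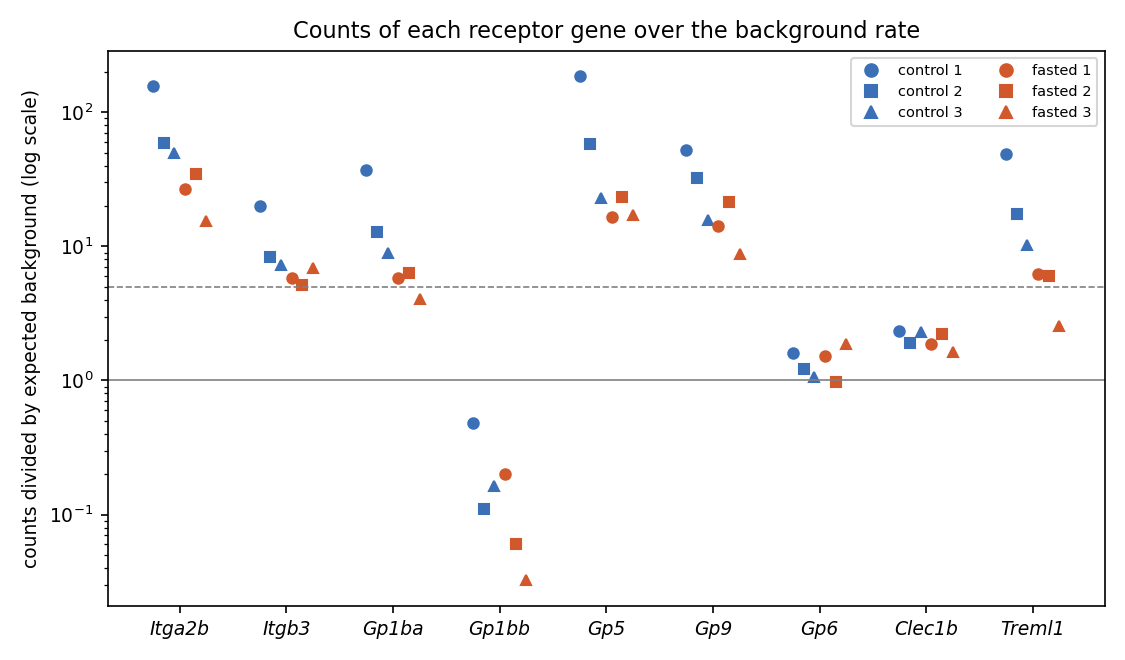
Counts of each receptor gene divided by the counts expected from the background rate over its exonic length, on a log scale, with 1 point per library; the solid line is the background itself and the dashed line 5 times it. Itga2b and Gp5 reach 157 and 187 times the background in control library 1, while Gp6 and Clec1b stay between 0.976 and 2.35 times and Gp1bb reaches at most 0.480 times in every library.

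Per kilobase of exon, the level over the 6 libraries was highest for Itga2b, at a mean of 32.8 CPM per kilobase, followed by Gp5 at 28.6 and Gp9 at 14.8. Treml1 had 8.20, Gp1ba 7.03 and Itgb3 5.46 CPM per kilobase. Clec1b had 1.41, Gp6 0.961 and Gp1bb 0.105. The ranges of neighbours in this order overlapped except between Itgb3 and Clec1b and between Gp6 and Gp1bb. Clec1b and Gp6 were close to background, and most Gp1bb bases are shared with other genes. Their places in this order are therefore not read as levels of their RNA. Within libraries, Gp5 was above Gp9 and Gp9 above Treml1 in 6 of 6, whereas Itga2b was above Gp5 in 4 of 6 and Treml1 above Gp1ba in 4 of 6.

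Fasted and control libraries were compared with edgeR's quasi-likelihood test over all 36508 genes that passed a filter on low counts, and a call is a Benjamini-Hochberg adjusted p under 0.05 over all of them. Of the 9 receptor genes 8 were tested, and 1, Treml1, was called, lower in the fasted libraries. Over all tested genes 4.97% were called and 3.82% were called lower. The members' median log2 fold change came to -0.72 over the 8 tested and -1.03 over the 6 at or above 5 times the background, beside a median of 0.32 over all tested genes, -0.50 over the 10635 of them at or above 5 times the background and 0.53 over the 25873 below it. The scaling between libraries therefore sets where 0 lies: with library totals alone the median of all genes moved to 0.81 and that of the genes above the line to -0.0046. In a fit restricted to the 10635 genes reaching 5 times the background, where the median was 0.02, edgeR called 0 genes (0.0%), with 2109 at an unadjusted p under 0.05. None of the 6 members in that fit was called, 1 of them, Treml1, had an unadjusted p under 0.05, and their median was -0.50.

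Itga2b (ENSMUSG00000034664.13, chr11:102453297-102470122, minus strand, GRCm38 in GENCODE M21) had 7706, 4232 and 3981 counts among the controls and 2071, 3012 and 1253 after fasting, given here and for the other genes in the order of libraries 1, 2 and 3. After scaling these were 338, 189.0 and 189.8 CPM for the controls and 133, 158 and 65.6 CPM after the fast. Every fasted library lay below every control library, and fasted library 3 was the lowest. The mean was 239 CPM ± 85.8 (SD, n = 3) against 119 CPM ± 47.6 (SD, n = 3). Its log2 fold change came to -1.01 (SE 0.30, edgeR adjusted p = 0.0571), just outside the call. The restricted fit gave -0.49 (SE 0.28, edgeR adjusted p = 0.354), and on that scaling the groups overlapped.

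Itgb3 (ENSMUSG00000020689.4, chr11:104608000-104670476, plus strand), the partner chain, had 1059, 645 and 630 counts among the controls and 484, 485 and 601 after fasting. These were 46.5, 28.8 and 30.04 CPM for the controls and 31.1, 25.4 and 31.5 CPM after the fast. Apart from control library 1, all values lay close together and the groups overlapped. The mean was 35.1 CPM ± 9.86 against 29.3 CPM ± 3.42 (SD, n = 3 each). Its change on the log2 scale was -0.26 (SE 0.25, edgeR adjusted p = 0.482). Its sign followed the scaling: it was 0.26 (SE 0.22) with library totals alone and 0.29 (SE 0.20) in the restricted fit.

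The ratio of the integrin chains within a library does not depend on scaling. Itgb3 had 0.127, 0.141 and 0.146 times the counts per kilobase of Itga2b in control libraries 1, 2 and 3, and 0.216, 0.149 and 0.444 times after fasting. The control values were tight, and every fasted value lay above them, fasted library 2 by a small margin. On the log2 scale the mean was -2.86 ± 0.11 in control and -2.04 ± 0.80 in fasted libraries (SD, n = 3 each), a difference of 0.82. The two-sided exact permutation test gave p = 0.1, the smallest value that 3 against 3 libraries allow, and an adjusted p of 0.6 over the 6 ratios compared. Without fasted library 3 the difference was 0.38. With background subtracted from the counts it was 0.75 and the exact p was 0.3.

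Gp1ba (ENSMUSG00000050675.7, chr11:70639122-70642036, plus strand), the chain that binds von Willebrand factor, had 910, 457 and 356 counts among the controls and 223, 275 and 164 after fasting. These corresponded to 39.9, 20.4 and 16.98 CPM for the controls and 14.3, 14.4 and 8.58 CPM after the fast. The groups did not overlap, and the gap between control library 3 and fasted library 2 was narrow. Group means were 25.8 CPM ± 12.4 and 12.4 CPM ± 3.33 (SD, n = 3 per group). The log2 fold change came to -1.05 (SE 0.31, edgeR adjusted p = 0.0535), again just outside the call. It was -0.50 (SE 0.29, edgeR adjusted p = 0.350) in the restricted fit.

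Gp5 (ENSMUSG00000047953.7, chr16:30307685-30310779, minus strand), the chain that thrombin cleaves, varied widely among control libraries. Its counts were 3689, 1671 and 741 in control and 521, 814 and 564 after fasting, or 162, 74.6 and 35.3 CPM for the controls and 33.5, 42.6 and 29.5 CPM after the fast. Control library 3 lay inside the fasted range, while control library 1 was the highest of all. The mean was 90.6 CPM ± 64.8 against 35.2 CPM ± 6.69 (SD, n = 3 per group). Its log2 fold change of -1.36 (SE 0.48) had an edgeR adjusted p of 0.115, and it was -0.65 (SE 0.26, edgeR adjusted p = 0.134) without control library 1.

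Gp9 (ENSMUSG00000030054.4, chr6:87778072-87779768, plus strand), a small chain the complex needs to reach the surface, had 418, 375 and 205 counts among the controls and 177, 303 and 114 after fasting. In CPM these were 18.3, 16.7 and 9.78 for the controls and 11.4, 15.8 and 5.97 after the fast. The groups overlapped. Its log2 fold change came to -0.44 (SE 0.33, edgeR adjusted p = 0.377) and changed sign to 0.04 (SE 0.32) with library totals alone and 0.07 (SE 0.32) in the restricted fit. Within libraries, the log2 ratio of Gp9 to Gp1ba was 0.89 ± 0.42 in control and 1.39 ± 0.34 in fasted libraries (SD, n = 3 each; exact permutation p = 0.3, adjusted p = 0.6). The ratio of Gp5 to Gp1ba was 1.96 ± 0.52 and 1.83 ± 0.28 on the same scale (SD, n = 3 each; exact permutation p = 0.7, adjusted p = 0.7), and its difference of -0.13 turned to 0.03 with background subtracted.

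Gp1bb (ENSMUSG00000050761.4, chr16:18620317-18622403, minus strand), the disulfide-linked partner of the Gp1ba chain, had 9, 3 and 5 counts among the controls and 6, 2 and 1 after fasting. It did not pass the filter on low counts, and its counts were 0.0323 to 0.480 times the background expected over its length. In GENCODE M21, Gp1bb is a single merged exon of 2087 bases that shares 1902 bases with Sept5 and 867 with Gm49601, both on the same strand, so that 149 bases (7.14%) belong to no other gene. Sept5 itself had 3, 4 and 5 counts among the controls and 4, 5 and 10 in fasted libraries, which is 0.0718 to 0.172 times its background, and Gm49601 had 8 to 29 counts per library. The labels do not say how reads shared by overlapping genes were counted. The level of Gp1bb, and its log2 ratio to Gp1ba (a difference of 0.32 between the groups, exact permutation p = 0.7, adjusted p = 0.7), were therefore not read as a level of its RNA.

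**Figure D2:**
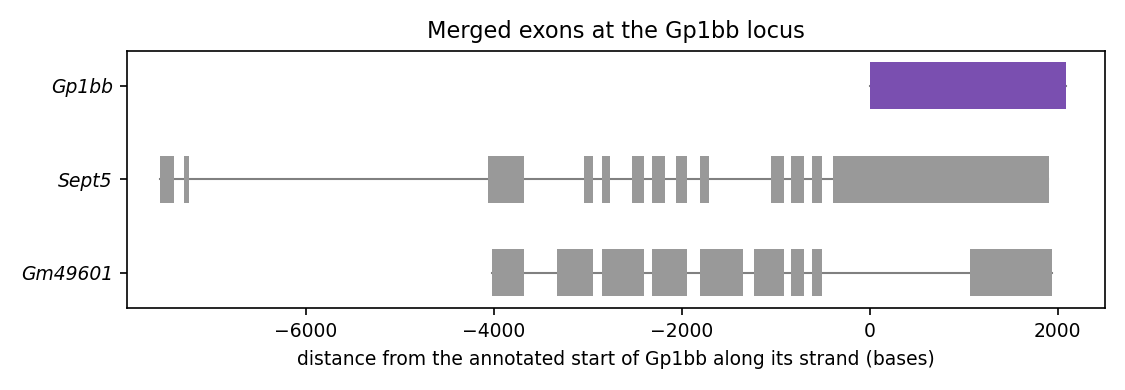
Merged exons of Gp1bb, Sept5 and Gm49601 in GENCODE M21, as boxes joined by lines, against the distance in bases from the annotated start of Gp1bb along its strand. The last Sept5 exon covers 1902 of the 2087 bases of Gp1bb.

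Gp6 (ENSMUSG00000078810.4, chr7:4363965-4397744, minus strand) had 85, 95 and 92 counts among the controls and 128, 92 and 165 after fasting, where background alone would give 53.0, 77.7 and 86.7 for the controls and 83.9, 94.2 and 87.7 after the fast. Its CPM values were 3.73, 4.24 and 4.39 for the controls and 8.23, 4.81 and 8.64 after the fast. Every fasted library lay above every control library. Its log2 fold change came to 0.81 (SE 0.33, edgeR adjusted p = 0.115), and with library totals alone it was 1.31 (SE 0.38, edgeR adjusted p = 0.0400), the one member called under that scaling. There 12.6% of all genes were called and 11.8% were called higher, and the median of all genes below 5 times the background was 1.01.

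Clec1b (ENSMUSG00000030159.15, chr6:129397297-129409335, plus strand), which shares 184 exonic bases with Clec9a, had 108, 128 and 171 counts among the controls and 135, 182 and 124 after fasting. In CPM these were 4.74, 5.72 and 8.15 for the controls and 8.68, 9.52 and 6.49 after the fast, and the groups overlapped. With library totals alone, and on the scaling of the restricted fit, which does not hold this gene, every fasted library lay above every control library. The share of all genes that did so on those scalings is not given here. Divided by the expected background, the counts of Clec1b were 2.35, 1.91 and 2.28 times it for the controls. After fasting they were 1.86, 2.23 and 1.64 times it. Its log2 fold change came to 0.41 (SE 0.31, edgeR adjusted p = 0.377), below the median of 0.53 of genes under 5 times the background, and 0.85 with library totals alone (edgeR adjusted p = 0.0916), below their median of 1.01. The log2 ratio of Clec1b to Gp6 was 0.76 ± 0.29 in control and 0.42 ± 0.71 in fasted libraries (SD, n = 3 each; exact permutation p = 0.5, adjusted p = 0.7). That difference of -0.34 turned to 0.23 (exact permutation p = 1.0) with background subtracted from both genes.

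Treml1 (ENSMUSG00000023993.7, chr17:48359916-48367176, plus strand) had 613, 320 and 210 counts among the controls and 124, 135 and 53 after fasting. These were 26.9, 14.3 and 10.0 CPM for the controls and 7.97, 7.06 and 2.77 CPM after the fast, and the groups did not overlap. With means of 17.1 CPM ± 8.78 among the controls and 5.94 CPM ± 2.78 after fasting (SD, n = 3 per group), Treml1 fell by 1.53 on the log2 scale (SE 0.40, edgeR adjusted p = 0.0430). The call was lost when any library other than control library 3 was left out, with edgeR adjusted p from 0.0510 to 0.182 and log2 fold changes from -1.81 to -1.05, the smallest without control library 1. It was also lost with library totals alone (-1.02, edgeR adjusted p = 0.0706) and in the restricted fit (-0.98, SE 0.40, edgeR adjusted p = 0.229). The log2 ratio of Treml1 to Itga2b was -1.91 ± 0.32 in control and -2.40 ± 0.27 in fasted libraries (SD, n = 3 each; exact permutation p = 0.2, adjusted p = 0.6).

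**Figure D3:**
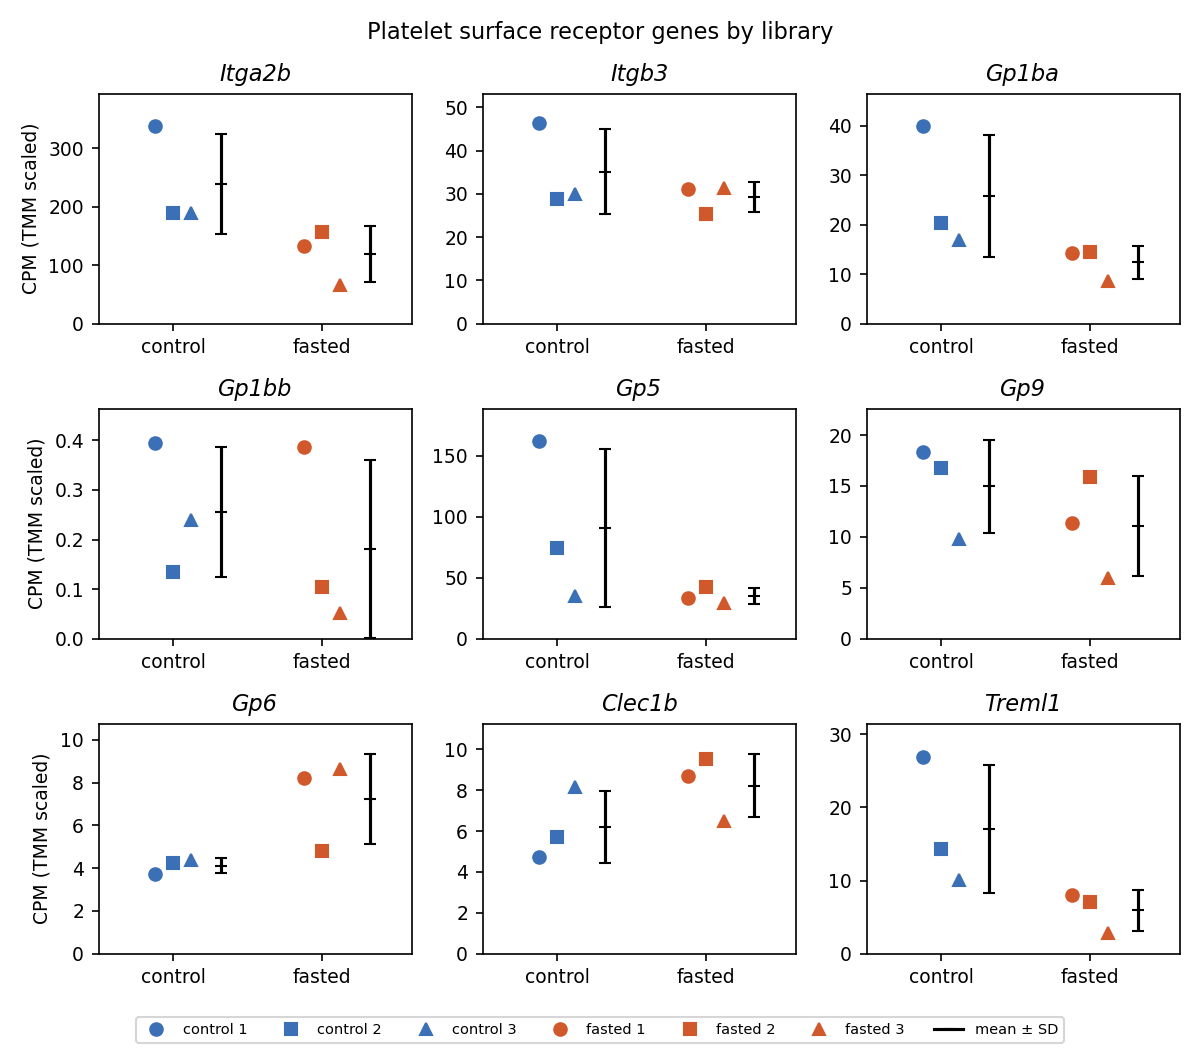
CPM after TMM scaling of each receptor gene, with 1 point per library and the mean ± SD of the 3 libraries of each group beside them; each axis starts at 0 and has its own range. Itga2b, Gp1ba and Treml1 have no overlap between the groups with fasted libraries lower, and Gp6 has none with fasted libraries higher.

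Across the 8 tested members, the groups did not overlap for 3 with fasted libraries lower (Itga2b, Gp1ba and Treml1) and for 1 with fasted libraries higher (Gp6). Among all tested genes, 15.1% were lower and 19.8% higher without overlap. On the scaling of the restricted fit, 0 of the 6 members were lower without overlap, against 12.9% of the 10635 genes. Control library 1 carried much of the size of the differences. Without it the log2 fold change came to -0.68 for Itga2b, -0.60 for Gp1ba, -0.27 for Gp9 and -0.02 for Itgb3, edgeR adjusted p lay between 0.0796 and 0.971 over the 8 members, and the median of the 6 members at or above 5 times the background was -0.63 in place of -1.03. In the restricted fit without that library this median was -0.20. Fasted library 3 also carried part of the size for most of these genes. Leaving it out gave -0.72 for Itga2b, -0.85 for Gp1ba and -1.25 for Gp5. It gave -1.19 for Treml1, -0.14 for Gp9 and -0.33 for Itgb3. The restricted fit without fasted library 3 gave -0.23, -0.34, -0.72, -0.67, 0.34 and 0.17 in the same order.

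**Figure D4:**
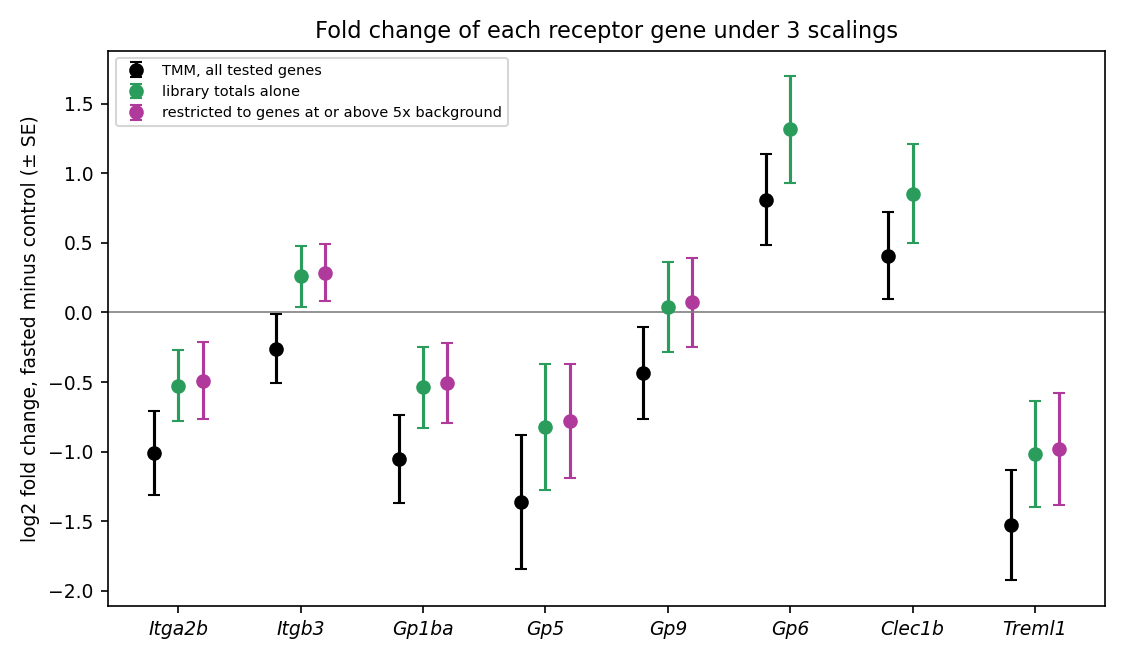
Log2 fold change (fasted minus control) of the 8 tested receptor genes, with the SE as bars, under TMM scaling of all tested genes, library totals alone, and the fit restricted to genes reaching 5 times the background, which does not hold Gp6 and Clec1b. Itgb3 and Gp9 change sign between the first and the other scalings, at -0.26 and 0.26 for Itgb3 and -0.44 and 0.04 for Gp9.

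**Figure D5:**
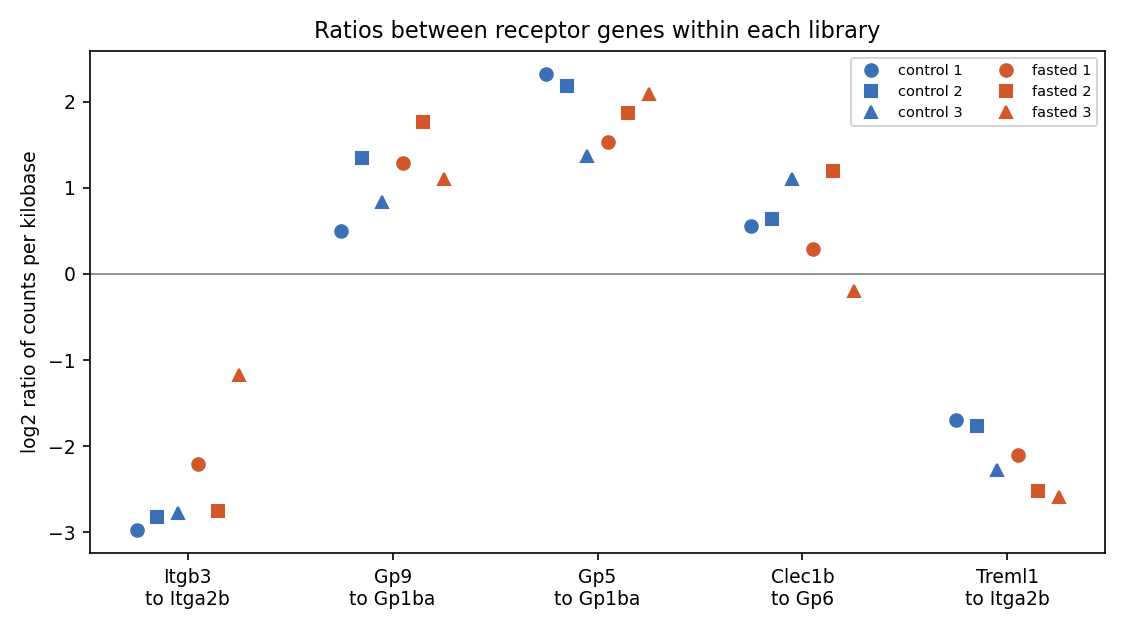
Log2 ratio of counts per kilobase between pairs of receptor genes within each library, 1 point per library. The ratio of Itgb3 to Itga2b lies between -2.98 and -2.77 in control libraries and between -2.75 and -1.17 in fasted libraries; the other pairs overlap between the groups.

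Other receptors of the platelet surface, a list of 30 genes, were all tested, and 3 passed, all lower in the fasted libraries, where 3.82% of all tested genes were called lower. Among these were Cd9, the gene of a tetraspanin, with a log2 fold change of -1.10 (SE 0.27, edgeR adjusted p = 0.0374) and Icam2, an adhesion gene, with -0.99 (SE 0.26, edgeR adjusted p = 0.0393). Cd9 averaged 87.4 CPM ± 12.9 among the controls and 40.8 CPM ± 15.7 after fasting (SD, n = 3 per group). The list's median log2 fold change came to -0.42, with 20 genes below 0 and 10 above. Of the 30 genes 18 reached 5 times the background, and the median of all genes that did was -0.50. The share called lower among such genes is not given here. With library totals alone 4 of the 30 passed, all higher, where 11.8% of all tested genes were called higher, and the median was 0.08. Cd9 and Icam2 did not pass there (edgeR adjusted p = 0.0574 and 0.0758). In the restricted fit 0 of 18 passed by edgeR, and the median was -0.14.

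Of 21 genes that carry or regulate signals from these receptors, 3 passed, all lower, against the same 3.82% of all tested genes. Plcg2, the phospholipase C downstream of GPVI and CLEC-2, had -1.07 (SE 0.26, edgeR adjusted p = 0.0359), the tyrosine phosphatase gene Ptpn6 -0.88 (SE 0.24, edgeR adjusted p = 0.0423) and the kinase gene Btk -0.85 (SE 0.24, edgeR adjusted p = 0.0456). Fcer1g, the gene of the chain that signals for GPVI, did not pass, with -0.91 (SE 0.30, edgeR adjusted p = 0.0715). The median of this list was -0.59, with 20 of 21 genes below 0, and -0.11 with library totals alone, where 1 passed, higher. Beside the -0.59 stands a median of -0.50 over all 10635 genes that reach 5 times the background, as 18 of the 21 do. The share of those 10635 called lower is not given here. None of Plcg2, Ptpn6 and Btk passed with library totals alone (edgeR adjusted p = 0.0652, 0.0828 and 0.0901) or in the restricted fit (edgeR adjusted p = 0.245, 0.224 and 0.226), where 0 of 18 genes of the list passed by edgeR and the median was -0.12.

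Of 13 transcription factor genes of the megakaryocyte lineage 4 passed, all lower (3.82% of all tested genes were): Fli1 with -1.35 (SE 0.27, edgeR adjusted p = 0.0248), Nfe2 with -1.32 (SE 0.32, edgeR adjusted p = 0.0405), Meis1 with -1.03 (SE 0.29, edgeR adjusted p = 0.0457) and Lyl1 with -0.83 (SE 0.23, edgeR adjusted p = 0.0456). Fli1, an ETS factor, averaged 125 CPM ± 25.0 among the controls and 49.1 CPM ± 16.9 after fasting (SD, n = 3 per group), and it still passed with library totals alone at -0.86 (edgeR adjusted p = 0.0314), where it was the 1 gene of the list called and Nfe2, Meis1 and Lyl1 were not (edgeR adjusted p = 0.156, 0.0903 and 0.132). In the restricted fit Fli1 had -0.84 (edgeR adjusted p = 0.147), and 0 of 12 genes of the list passed by edgeR. Gata1 had -0.78 (SE 0.31, edgeR adjusted p = 0.118). The list's median was -0.78 in the fit of all tested genes, -0.29 with library totals alone and -0.28 in the restricted fit. Of the 13 genes 12 reached 5 times the background, and the median of all 10635 such genes was -0.50. The 3.82% also covers the 25873 genes below that line, whose median was 0.53, so it is not a share among like genes. The share called lower above the line is not given here.

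Among the genes whose profile over the 6 libraries was most like that of Itga2b were Meis1, Lxn, Klhl6 and Dpysl2. Likeness was the root mean square difference of log2 CPM, each gene centred on its mean, over 9001 genes with at least 5 CPM and at or above 5 times the background, and genes named only by a model number were passed over. Meis1 was nearest at 0.0752 and Dpysl2 lay at 0.130, where the median gene lay at 0.496. Of the members, Gp1ba ranked 33 at 0.193, Treml1 898 at 0.346, Gp9 1458 at 0.379, Gp5 4459 at 0.494 and Itgb3 6903 at 0.619. Over these libraries Itgb3 was thus farther from Itga2b than the median gene, although their products form 1 receptor, while Gp1ba was the nearest of the members. The distance of Itgb3 leaned on fasted library 3, where its log2 ratio to Itga2b was -1.17, against -2.98 to -2.21 in the other libraries. Itgb3 also stood closer to background, at a median of 7.06 times it against 42.1 times for Itga2b.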

How the data were processed

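RNA of sorted progenitors was measured in 6 libraries. The authors deposited raw read counts per gene with the exonic length in bases; the submitters' processing notes name HISAT2 2.2.1, featureCounts 2.0.1 and GRCm38. Annotation, strand setting and treatment of shared reads are not given in the sources used here. Columns were matched to libraries by description, and groups come from the treatment label. Of 55487 identifiers, 54435 matched GENCODE M21 with their version, all 54435 with the deposited length.

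Counts were filtered with filterByExpr (36508 genes kept), scaled by TMM and tested with edgeR 4.0.16 in R 4.3.3 (robust quasi-likelihood, group as the only term, Benjamini-Hochberg over all genes). SE is the size of a log2 fold change divided by the square root of F. Background was the summed counts over the summed length of 1422 odorant and vomeronasal receptor genes. Ratios within a library used counts per kilobase with 0.5 counts added and two-sided exact permutation tests (scipy 1.17.1). On simulated counts with 200 genes changed 4-fold, 183 (91.5%) were called, with 14 unchanged genes called among 35573 tested. The simulation used a single mean profile and the same spread for every gene, and changed only well-counted genes. It held no difference in background between the groups. Its rates check the code and do not give the power or error rate for these libraries.

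Alternatives were other scalings, filters and thresholds, the restricted and background-subtracted fits, DESeq2 1.42.0, limma-voom (limma 3.58.1), a replicate block and leaving out each library. All 9 members are named; from each other list the calls are named, at most 4 by size, with Fcer1g and Gata1 chosen after their values were seen, and 1 gene is not reported here. The members and lists were chosen with earlier results of these data known. Lymphocyte markers were also summed (111 to 159 CPM in control and 108 to 219 in fasted libraries; with library totals alone 83.5 to 135 and 139 to 266, without overlap).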

Additional observations from a re-analysis of the deposited data

How the results depend on the processing

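The count of genes called in the whole table was 1813 and the count of receptor genes called was 1. Over all genes it was 4587 with library totals alone (6.34% lower), 2973 with RLE factors, 4182 with TMM factors from genes reaching 5 times the background, 2849 with no filter, 558 without robust settings, 5301 by DESeq2 (90.9% lower, against 76.8% in the comparison as reported), 5723 at an adjusted p under 0.1 and 18 under 0.01, and 0 in the restricted and the background-subtracted fits. Receptor genes called were 3 with RLE factors, 2 with upper-quartile factors, 3 with no filter, 2 with a minimum of 1 CPM in 3 libraries, 4 by DESeq2 and 3 at an adjusted p under 0.1, all lower, and 0 under 0.01 and in the restricted and background-subtracted fits. With TMM factors from genes reaching 5 times the background, 1 was called, Gp6, higher (1.30, edgeR adjusted p = 0.0422), as with library totals alone. With 1 library left out, 7 (without fasted library 3) to 5379 (without control library 3) genes and 0 to 4 receptor genes were called. The genes called were 190 without control library 2 and 105 without fasted library 1.

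Itgb3 changed sign to 0.26 with library totals alone, 0.26 with factors from genes reaching 5 times the background, 0.29 in the restricted fit and 0.26 after background subtraction. Gp9 changed sign to 0.0386, 0.0479, 0.0738 and 0.11 in the same order, and within the restricted fit it was -0.23 to 0.34 with 1 library left out. Over all these alternatives, 108 values of the receptor genes' fold changes kept direction and side of the threshold, 15 became calls, 9 lost the call and 8 reversed. In all of these the cause was not tested. Replicate numbers are not said to pair libraries: deviations from the group means correlated at -0.180, 0.141 and -0.368 for numbers 1, 2 and 3, and a fit with the replicate number as a block called 146 genes and 1 receptor gene, Treml1. Low counts and exons shared with Sept5 and Gm49601 limit Gp1bb, and closeness to background limits Gp6 and Clec1b.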
